A study of Mus musculus with 4 samples.

Results

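Lymphatic endothelial cells were compared before and after 7 days of co-culture with OP9 cells, within each of 2 genotypes, and the changes that the wild type and the mutant cells shared are described here. The cells came from mouse embryos at embryonic day 14.5 that were wild type or homozygous for a deletion, with a litter of embryos of each genotype pooled. They were sorted as CD45-, LYVE1+ and VECAD+ (CD144+), and part of each sort was lysed directly. The remainder was grown on OP9, a mouse stromal line that supports blood cell formation, in medium with the cytokines FLT3L, IL3 and SCF at 100 ng/ml each, and was then sorted again for LYVE1 and VECAD, a gate for which the labels name no CD45 exclusion. The 4 libraries are thus wild type before, mutant before, wild type after and mutant after culture, and values below are given in that order. The series asks whether these cells have haematopoietic potential. Its title names an enhancer bound by GATA2, which in the published work is an enhancer of Prox1.

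Lymphatic endothelial cells line the vessels that return tissue fluid and immune cells to the blood. In the embryo they arise mainly from venous endothelium when the homeobox factor PROX1 switches on, and they then express the VEGFC receptor FLT4, the hyaluronan receptor LYVE1 and the glycoprotein podoplanin while keeping general endothelial genes such as Cdh5 and Pecam1. Certain embryonic endothelial cells can give rise to blood, a step that depends on RUNX1 and GATA2, and OP9 co-culture with blood cytokines is a standard assay of that capacity.

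All 23337 gene symbols of the deposited tables were read, and the 17085 with at least 20 counts in at least 2 libraries were tested. A gene passed where its adjusted p (edgeR quasi-likelihood test of culture in a fit of genotype plus culture) was under 0.05, and it was called where it also differed at least 2-fold, the same way, in the wild type pair and in the mutant pair. "Rose" and "fell" are used for called genes only. The call rule itself favours groups that lie apart, so remarks below on their separation describe levels and add no support. Levels are CPM, counts relative to a library total scaled by the trimmed mean of M values (TMM), and log2 folds are after against before culture with the standard error (SE) of the fit. The pairs serve as the replicates, so a p-value measures how far the culture difference exceeds the disagreement between a wild type and a mutant pair, and it rests on 1 residual degree of freedom plus spread borrowed across genes (26.2 prior degrees of freedom).

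The libraries differed in depth and in background along the line of the comparison. Gene counts came to 3987150 and 7943587 before culture and 1694669 and 3931557 after. Receptor genes of smell and of the vomeronasal organ, which endothelium does not use, had coding sequence covered by 6.64, 8.34, 0.537 and 1.61 counts per kb. At that coding rate over all exons, background would be 16.3%, 10.3%, 3.11% and 4.02% of gene counts. Per kb of all annotated exons of the same receptor genes the rate was lower, at 1.95, 2.47, 0.157 and 0.474 counts, which gives 4.8%, 3.05%, 0.908% and 1.18%. The coding rate was added after seeing the data, and background below means the estimate at that rate unless the exon rate is named. Read pairs that did not align were 21.4% and 34.1% of all pairs before culture and 67.6% and 56.2% after. The defining markers Prox1, Lyve1, Flt4, Cdh5 and Pecam1 had counts in all 4 libraries. In bulk RNA, fewer cells of a type and less RNA per cell cannot be told apart.

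In all, 8294 genes passed (48.5% of those tested), 4089 higher and 4205 lower after culture. Of these, 1087 rose (6.36%) and 2560 fell (15.0%) by the stricter rule, and 4647 passed without reaching 2-fold in both genotypes. The folds in the genotypes went together across genes, with Pearson r = 0.79 and Spearman rho = 0.83 over all genes tested and 0.92 and 0.86 over the 7959 genes with a mean of at least 100 counts. These are correlations across genes, which are not independent replicates, and each genotype's fold uses its own 2 libraries. The sign was shared by 86.0% of genes. Past 4-fold, 262 genes were higher in both, 318 were lower in both and 0 went opposite ways. Among genes with a mean of at least 100 counts, the genotypes' log2 folds differed by a median of 0.26 and by up to 0.68 for 90% of them.

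**Figure D1:**
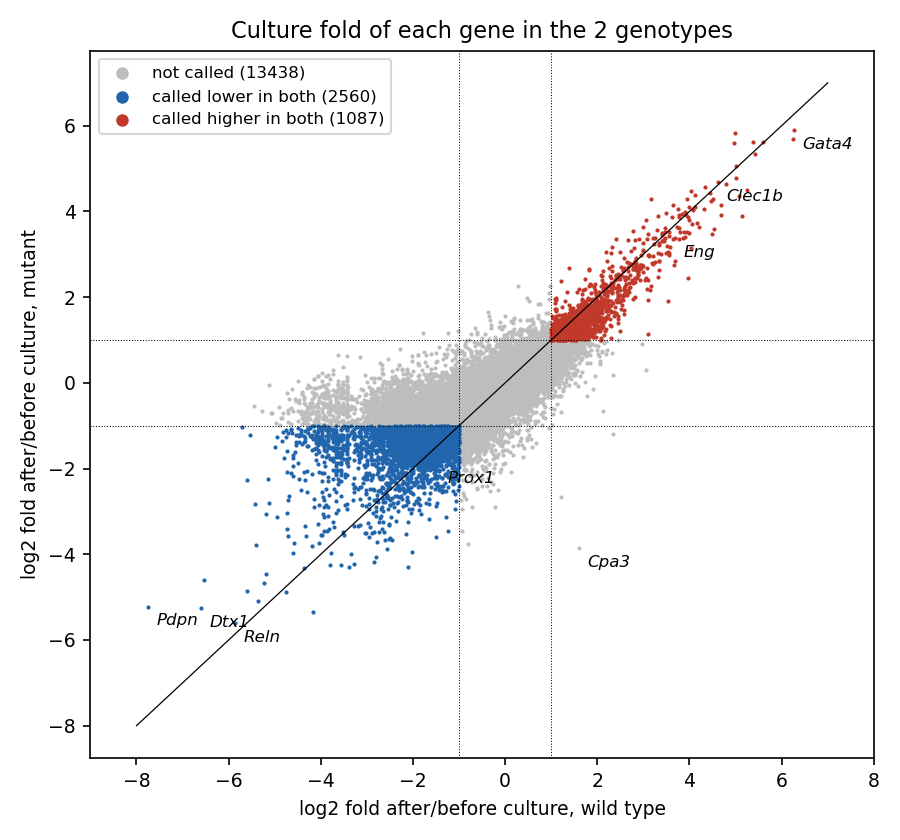
Log2 fold after against before culture of each of 17085 genes in wild type cells (x axis) and in mutant cells (y axis), with called genes in red and blue, dotted lines at 2-fold and the diagonal as a solid line. The 1087 genes called higher lie along the diagonal, whereas many of the 2560 called lower, most of them with few counts after culture, lie above it, and Cpa3 lies far off it.

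Past 2-fold in either direction were 3847 genes only in the wild type pair and 891 only in the mutant pair. Among genes with a mean of at least 100 counts, the median difference of the log2 folds, wild type minus mutant, was 0.11. The wild type library after culture has the fewest counts, 4787 of the genes tested passed the filter only through the libraries before culture, and 1772 of the 2560 genes that fell had fewer than 20 counts in both libraries after culture. The other 788 had at least 20 counts in at least 1 of them. With background subtracted at the coding rate, 726 of those 788 and 806 of the 1772 were still called lower, as were 839 of the 1087 higher genes called higher.

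The lymphatic genes did not move as a block. Of 20 lymphatic markers, 4 rose, 10 fell and 6 were not called, beside 6.36% higher and 15.0% lower over all genes tested. The markers had a median log2 fold of -0.76 against -0.12 over all genes tested. Among those that fell were the factor that specifies the lineage and much of its secreted and guidance repertoire, while the receptors for hyaluronan and VEGFC stood higher. The counts of this list were deep, with background at most 1.94% of them in any library, and 4 rose and 10 fell with background subtracted too.

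Prox1 (chr1:190118035-190170714 in mm10, minus strand) stood at 540 CPM in wild type and 503 CPM in mutant cells before culture, and at 199 and 134 CPM after it. The libraries after culture were both lower than either library before. Its log2 fold was -1.69 ± 0.16 (adjusted p = 2.42e-09), or 2.71-fold lower in wild type and 3.76-fold lower in mutant cells. Reln, which encodes the secreted glycoprotein reelin made by lymphatic endothelium, went from 1160 and 1050 CPM to 19.6 and 21 CPM, with a log2 fold of -5.73 ± 0.21 (adjusted p = 6.93e-18). Pdpn, which encodes podoplanin, had 435 and 915 counts before culture and 0 and 8 after, and fell by 5.93 ± 0.36 on the log2 scale (adjusted p = 2.04e-13). Pdpn passed the filter only through the libraries before culture, so its call is not independent of that filter. For Reln and Pdpn too, both libraries after culture lay far below both before. With background subtracted their log2 folds were -7.05 and -6.86.

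Mmrn1, an extracellular protein of lymphatic vessels, was at 2160, 1820, 308 and 231 CPM, a log2 fold of -2.90 ± 0.17. Sema3d, a guidance ligand, was at 261, 224, 25.2 and 13.7 CPM (log2 fold -3.74). Nrp2, the co-receptor for VEGFC, had a smaller fall, from 1820 and 1790 CPM to 870 and 888 CPM (log2 fold -1.04 ± 0.16), which lies just inside the 2-fold limit. In each of these genes the 2 libraries after culture lay below the 2 before. Tbx1, a T-box factor of lymphatic development, fell as well, by 2.52 on the log2 scale. Sema3d and Tbx1, and Nr2f2 and Sox18 below, were named after their values were seen.

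Lyve1, the gene of a receptor used in both sorts, rose from 1140 and 920 CPM to 3390 and 2670 CPM, a log2 fold of 1.55 ± 0.17 (adjusted p = 4.26e-08). The gate selects for its protein, so this level is not independent of the sort. Nr2f2, the COUP-TFII factor of veins and lymphatics, rose from 282 and 307 CPM to 991 and 913 CPM (log2 fold 1.69 ± 0.16). Sox18, a SOX factor that acts upstream of Prox1, was at 60.1, 73.4, 193 and 181 CPM (log2 fold 1.47 ± 0.16). Flt4 passed the test but not the 2-fold limit in mutant cells, with 1160, 1230, 2450 and 2210 CPM and log2 folds of 1.07 in wild type and 0.84 in mutant cells. Levels after culture exceeded those before in all 4 of these genes.

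**Figure D2:**
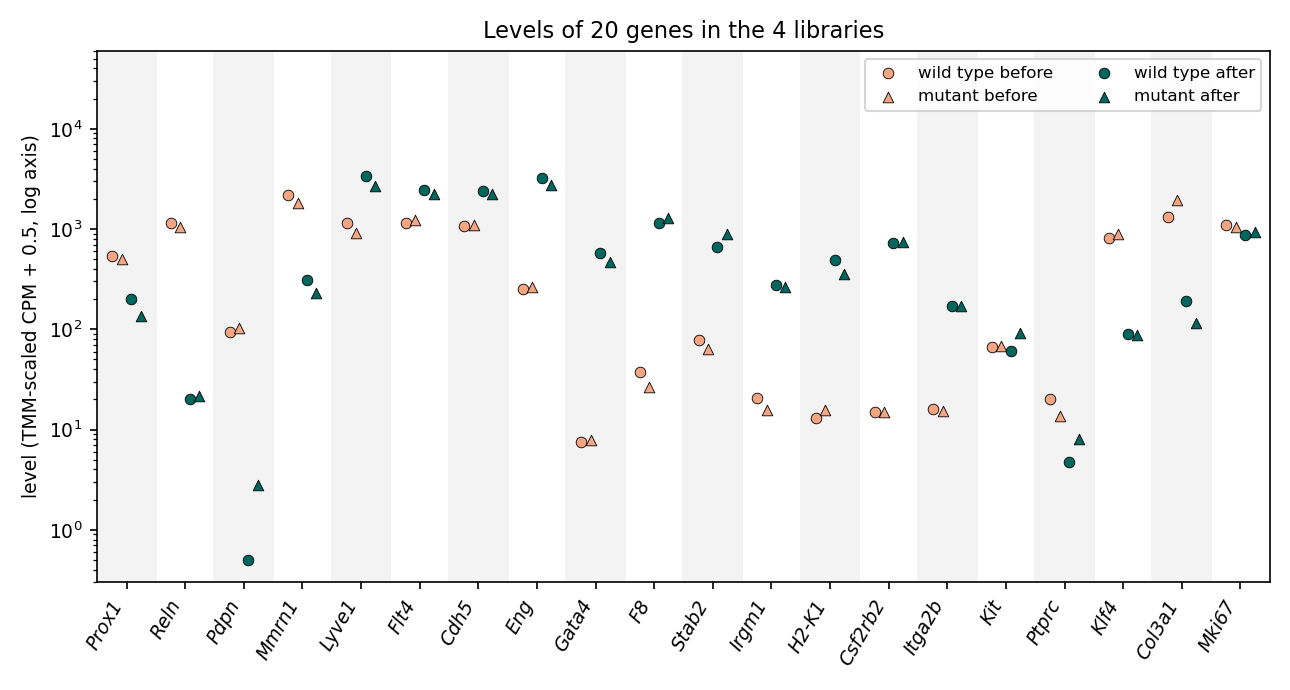
Levels of 20 genes in each of the 4 libraries, as CPM plus 0.5 on a log axis, with circles for wild type, triangles for mutant, orange for before and green for after culture. Before and after values are apart, with each genotype moving the same way, in all genes shown except Kit, and they are close together in Mki67.

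Most general endothelial genes rose. Of 22 pan-endothelial markers, 14 rose, 1 fell and 7 were not called, beside 6.36% higher and 15.0% lower over all genes tested. The markers had a median log2 fold of 1.31. Their summed level was 5780 and 6080 CPM before culture and 15800 and 14700 CPM after. Cdh5, which encodes VE-cadherin and whose protein was also gated in both sorts, went from 1070 and 1100 CPM to 2380 and 2230 CPM (log2 fold 1.08 ± 0.17), but was not called with library totals (0.66) or with background subtracted (0.72). Pecam1, the junctional adhesion molecule CD31 that was not gated, went from 604 and 604 CPM to 1460 and 1410 CPM (log2 fold 1.24 ± 0.16), and was not called under the same settings (0.81 and 0.89). Eng, the TGF-beta co-receptor endoglin, had a larger rise, from 249 and 262 CPM to 3220 and 2730 CPM (log2 fold 3.54 ± 0.19, adjusted p = 1.02e-14). Ptprb, the endothelial phosphatase VE-PTP, was at 335, 330, 994 and 1070 CPM (log2 fold 1.63). The member that fell was Vwf, the von Willebrand factor stored by endothelium for clotting, at 150, 199, 50.4 and 60 CPM (log2 fold -1.67 ± 0.17). With library totals as the scale 9 of the 22 rose and 2 fell, and with background subtracted 10 rose and 2 fell.

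Calls differed between markers of the endothelial subtypes, though the summed level of each list was higher after culture. These calls stand beside 6.36% higher and 15.0% lower over all genes tested. The arterial list summed to 1430, 1610, 2750 and 2500 CPM, and its median stood against -0.12 over all genes tested. Of 14 venous and capillary markers 9 rose and 1 fell (median log2 fold 1.66), of 12 sinusoidal markers 5 rose and 0 fell (0.88), and of 14 arterial markers 2 rose and 5 fell (-0.28), or 2 and 2 by the DESeq2 test and 3 and 3 without the mutant library after culture. Among the venous and capillary genes, Cd36, a fatty acid receptor of capillaries, went from 78.7 and 59.6 CPM to 1200 and 899 CPM (log2 fold 3.92 ± 0.17). Plvap, the diaphragm protein of fenestrated vessels, went from 147 and 152 CPM to 1090 and 963 CPM (log2 fold 2.77 ± 0.16). Ephb4, a venous receptor for ephrin B2, was at 291, 322, 772 and 727 CPM (log2 fold 1.29), and was not called with library totals (0.86) or with background subtracted (0.95). With library totals 7 of the 14 rose and 2 fell, and with background subtracted 6 of 13 rose and 2 fell. A member that fell was Cav1, the coat protein of caveolae, from 470 and 411 CPM to 70.7 and 43.1 CPM (log2 fold -3.01 ± 0.18).

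Among the largest shared rises was that of Gata4, a GATA factor of liver sinusoidal endothelium and of the heart. It had 33 and 66 counts before culture and 826 and 1605 after, or 7.06, 7.41, 578 and 467 CPM. Its log2 fold was 6.13 ± 0.20 (adjusted p = 1.95e-18), which is 77.3-fold in wild type and 59.6-fold in mutant cells. The background rate would give 25.9 and 32.5 of its counts before culture and 2.1 and 6.29 after, so the size of the fold rests on a low starting level. With background subtracted its log2 fold was 7.10, below those of Clec1b (11.78), Iigp1 (8.29), Ifi204 (7.38) and Ifi44 (7.12). Oit3, a secreted protein of liver sinusoids, was at 12.4, 10.9, 529 and 556 CPM (log2 fold 5.56 ± 0.19). F8, coagulation factor VIII, which sinusoidal and other endothelium makes, was at 37.0, 26.3, 1160 and 1300 CPM (log2 fold 5.31 ± 0.20). Stab2, a scavenger receptor for hyaluronan, was at 78.5, 63.0, 656 and 882 CPM (log2 fold 3.45 ± 0.18). In these 4 genes the groups were far apart. The list was not uniform, since 7 members were not called. Of these, named after its values were seen, Stab1, the companion of Stab2, stood at 1350, 1490, 2320 and 2280 CPM (log2 fold 0.70). Background-subtracted counts gave 5 calls higher and 0 lower among the 10 members then tested.

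Of the arterial genes, Nrp1, a co-receptor for VEGFA, rose from 99.9 and 126 CPM to 765 and 806 CPM (log2 fold 2.80 ± 0.16), and Dll4, a Notch ligand, from 70.4 and 71.9 CPM to 258 and 244 CPM (log2 fold 1.82 ± 0.16). Hey1, a transcriptional target of Notch, fell from 155 and 169 CPM to 22.4 and 12.5 CPM (log2 fold -3.34 ± 0.23). Dtx1, a Notch pathway regulator that the list does not hold, was among the genes with the largest shared falls, with 508 and 932 counts before culture and 1 and 8 after (log2 fold -5.83 ± 0.33). It passed the filter only through the libraries before culture, so its call is not independent of that filter. The size of its fold rests on a few read pairs, with 96.2-fold in wild type and 38.0-fold in mutant cells. Gja4, the arterial connexin 37, fell by 1.96 on the log2 scale.

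Several matrix and lysosome genes rose. The calls in these lists stand beside 6.36% higher and 15.0% lower over all genes tested, and the 2 basement membrane falls are near that share. Of 12 basement membrane genes, 5 rose, 2 fell and 5 were not called (median log2 fold 0.70), and their summed level went from 9770 and 9910 CPM to 24000 and 21000 CPM. The collagen IV chain Col4a1 was at 2240, 2060, 6080 and 5290 CPM (log2 fold 1.40 ± 0.19) and its partner Col4a2 at 974, 938, 3370 and 2920 CPM (1.71 ± 0.18). Hspg2, the proteoglycan perlecan, was at 1000, 1170, 7280 and 6410 CPM (2.66 ± 0.21), and outside the list Fn1, fibronectin, was at 1870, 2070, 8550 and 7820 CPM (2.05 ± 0.21). The laminin chain Lamb1 and the collagen Col15a1 went the other way; both were chosen for mention after their values were seen, and fell by 2.47 and 2.86 on the log2 scale. With library totals 4 members rose and 4 fell, as also with background subtracted. Of 16 lysosomal genes 10 rose and 0 fell (median 1.47), and the protease Ctsd, at 168, 204, 1580 and 1400 CPM, rose the most of those named (log2 fold 3.0 ± 0.17). Lamp1, a membrane protein of lysosomes, was at 215, 225, 896 and 761 CPM (1.90 ± 0.16). With library totals 6 of the 16 rose.

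Most interferon-stimulated genes rose. Of 29 such genes 25 rose, 0 fell and 4 were not called, with a median log2 fold of 2.84 (2.99 in wild type and 2.74 in mutant cells) against 6.36% of all genes called higher. The summed level of the list was 417 and 373 CPM before culture and 3870 and 3000 CPM after. The list was already known to move in these data, so its direction is not independent evidence. Type I interferon acts through transcription factors that bind short repeats of GAAA in the promoters of these genes.

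Ddx58, which encodes the RNA sensor RIG-I, was at 24.8, 23.5, 296 and 255 CPM (log2 fold 3.50 ± 0.17, adjusted p = 2.62e-15). Irgm1, a GTPase of cell-autonomous defence, was at 20.3, 15.3, 279 and 262 CPM (3.95 ± 0.18). Both stood several-fold higher in each library after culture than in either before. Ifi44 was at 9.63, 7.41, 325 and 216 CPM (4.96 ± 0.20). Outside the list, the GTPase gene Iigp1 (log2 fold 4.80 ± 0.20) and Ifi204, a DNA sensor of a family of similar copies whose counts may be shared (5.52 ± 0.23), were among the 12 genes with the largest shared rise. The members not called were Oas3 (11.3, 10.8, 6.30 and 4.08 CPM), Mx1 (14.3, 11, 4.9 and 6.41 CPM), Zbp1 (9.41, 7.07, 23.8 and 13.1 CPM) and Gbp2 (10.7, 10.1, 37.1 and 16.6 CPM), named as the complete remainder. Background made up 40.0% and 29.6% of the counts of the list before culture and 1.14% and 1.84% after, and with it subtracted 26 of 28 members rose and 0 fell. With library totals 23 rose and 2 fell, and with any of the 4 libraries left out 24 to 27 rose and at most 1 fell.

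The promoters of the list were searched for the repeat, spelled GAAANNGAAA on either strand, in the window of 250 bases before to 50 after the start site given by RefSeq (GRCm38.p6). The motif was present in 14 of the 22 interferon genes with a promoter entry (63.6%), in 486 of 13135 tested genes (3.7%) and in 1131 of 32851 promoters of the table (3.44%). It was present in 71 of 821 genes called higher (8.65%), 81 of 1893 called lower (4.28%) and 334 of 10421 not called (3.21%). A match is a description and not evidence of binding. The windows below show the motif in capitals, with up to 30 bases on each side and none past the start site, for the 6 members that rose, had a match before the start site and held the most counts. They lie at chr11:48871421-48871474 (minus strand), chr10:128270248-128270315 (plus), chr3:142559975-142560043 (plus), chr12:26456533-26456602 (minus), chr19:34583377-34583446 (plus) and chr19:34640774-34640843 (plus), and each is written 5′ to 3′ on the gene's strand. Where the capitals read TTTC, the repeat is on the other strand.
Irgm1: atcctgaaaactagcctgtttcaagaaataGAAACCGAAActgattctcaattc
Stat2: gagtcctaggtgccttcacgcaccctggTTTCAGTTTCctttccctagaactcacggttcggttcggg
Gbp3: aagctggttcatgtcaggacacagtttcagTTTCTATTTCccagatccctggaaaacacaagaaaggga
Rsad2: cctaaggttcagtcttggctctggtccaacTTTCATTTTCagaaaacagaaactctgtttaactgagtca
Ifit3: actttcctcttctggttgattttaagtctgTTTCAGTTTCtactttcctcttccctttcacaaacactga
Ifit1: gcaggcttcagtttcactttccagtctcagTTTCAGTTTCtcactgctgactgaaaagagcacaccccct

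The motif begins 24 bases before the start site in Irgm1, 222 in Stat2, 39 in Gbp3, 120 in Rsad2, 122 in Ifit3 and 85 in Ifit1. The members shown were picked with their values known. Stat2 was at 28.7, 29.9, 251 and 161 CPM (log2 fold 2.75), and Gbp3, a guanylate-binding protein, at 19.5, 18.6, 224 and 156 CPM (3.27). Rsad2, the antiviral enzyme viperin, was at 10.9, 8.98, 202 and 123 CPM (3.97). The neighbours Ifit3 and Ifit1, which bind viral RNA, were at 7.70, 7.41, 120 and 88.8 CPM (3.74) and at 4.92, 2.92, 91.7 and 69.6 CPM (4.40). In all of these both libraries after culture were higher, and the wild type one was the higher of the 2.

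Antigen presentation genes rose too. The shares over all genes tested were 6.36% higher and 15.0% lower. Of 10 genes of the MHC class I pathway 9 rose and 0 fell (median log2 fold 2.85), and 8 rose with library totals. Background came to 27.6% and 20.4% of their counts before culture, and with it subtracted 9 of the 9 then tested rose. H2-K1, a classical class I heavy chain, was at 12.6, 15.2, 494 and 352 CPM (log2 fold 4.86 ± 0.20), and H2-D1, another, at 29.3, 23, 589 and 390 CPM (4.2 ± 0.17). Class I genes are similar to each other, so their counts may be shared. B2m, the common light chain, was at 60.5, 55.2, 942 and 637 CPM (3.73 ± 0.17), and Tapbp, which loads peptide onto class I, at 29.3, 16.3, 179 and 126 CPM (2.78 ± 0.18). The motif was in 2 of the 8 promoters matched (25.0%). Chemokines did not follow as a list, with 3 of 10 higher and 2 lower, or 0 lower by the DESeq2 test and by limma-voom. Cxcl12, a chemokine of stroma and endothelium, rose from 33.4 and 42.6 CPM to 564 and 558 CPM (3.88 ± 0.17). Cxcl9, an interferon-induced chemokine, had 41, 62, 1 and 10 counts (-1.75), of which background would give 20 and 25.1 before culture. It passed the filter only through the libraries before culture. Cxcl9 was not called by limma-voom (adjusted p = 0.0951), by the DESeq2 test or without the wild type library after culture.

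**Figure D3:**
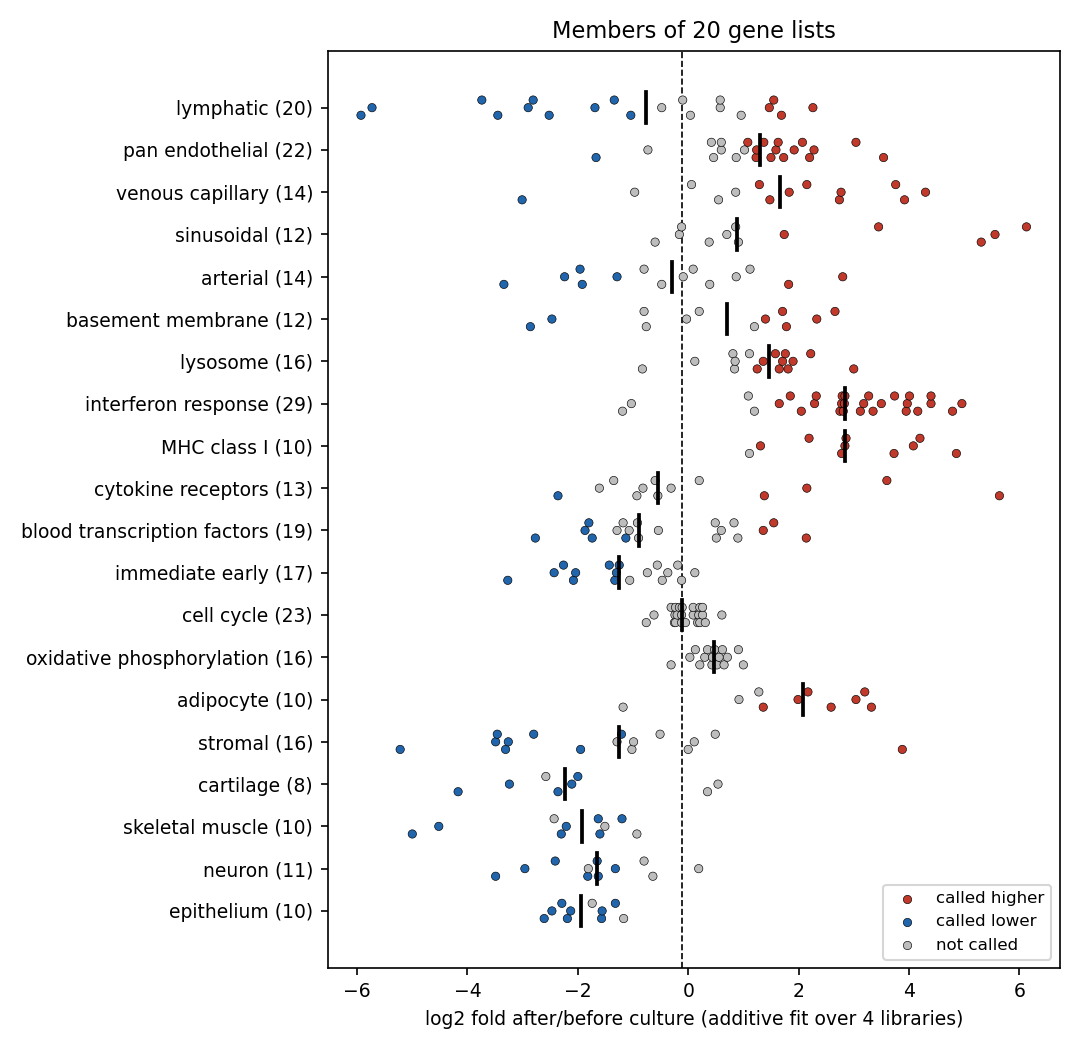
Log2 fold after against before culture of every tested member of 20 gene lists (number of members in brackets), with called members in red and blue, the median of each list as a black bar and the median of all genes, -0.12, as a dashed line. The interferon and MHC class I members lie almost wholly to the right, the cell cycle members lie close to the dashed line, and the lymphatic members spread to both sides.

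The blood cell programme that the assay looks for was examined through receptors, transcription factors and surface proteins. Of 13 cytokine receptors 4 rose and 1 fell (median log2 fold -0.55, against 0.36 over the 9 members tested with background subtracted, where again 4 rose and 1 fell). With library totals 3 rose and 5 fell. The share over all genes tested, as reported above, was 6.36% higher and 15.0% lower. The receptors that rose were those of IL3 and of the IL6 family. Csf2rb2, the beta chain specific to IL3 in the mouse, had 68 and 130 counts before culture and 1033 and 2520 after, or 14.5, 14.6, 723 and 734 CPM, a log2 fold of 5.64 ± 0.19 (adjusted p = 1.95e-18). Csf2rb, the common beta chain, was at 16.9, 24.1, 249 and 255 CPM (3.60 ± 0.18). The pair are close copies that lie near each other on chromosome 15 (chr15:78282507-78305721 and chr15:78325752-78353847), so reads may be shared between them. Il3ra, the alpha chain, was at 5.35, 7.19, 14.0 and 18.6 CPM (1.38 ± 0.35), and Il6st, the signalling chain gp130, at 286, 277, 1290 and 1210 CPM (2.15 ± 0.16). Il3ra had 25, 64, 20 and 64 counts, of which background would give 19.7 and 24.7 before culture and 1.59 and 4.78 after. With it subtracted the log2 fold of Il3ra was 1.97, but Il3ra was not called by the DESeq2 test (adjusted p = 0.0692). Of the receptors for the other added cytokines, Kit, the SCF receptor, was at 65.7, 68.3, 60.2 and 92.3 CPM (log2 fold 0.20, adjusted p = 0.35) and Flt3, the FLT3L receptor, named after its values were seen, at 9.20, 9.43, 6.30 and 6.41 CPM (-0.55, adjusted p = 0.257).

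Of 19 blood transcription factors 3 rose, 5 fell and 11 were not called, beside 6.36% higher and 15.0% lower over all genes tested. With library totals 2 of them rose and 8 fell. Runx1, which drives the endothelial to haematopoietic step, was at 26.7, 31.0, 38.5 and 48.6 CPM, higher after culture in both genotypes but short of 2-fold (log2 fold 0.60 ± 0.21, adjusted p = 0.023), and it did not pass with library totals, the DESeq2 test, a mean of at least 100 counts, libraries thinned to equal depth, or without the wild type library before or the mutant library after culture. Background would give 79.8 and 100 of its 125 and 276 counts before culture and 6.46 and 19.4 of the 55 and 167 after, and with it subtracted the log2 fold was 1.01 (adjusted p = 0.00313). At the exon rate those counts would be 23.4, 29.7, 1.88 and 5.7. Gata2, which acts with it, was at 81.1, 97.0, 65.1 and 59.4 CPM (-0.54 ± 0.18, adjusted p = 0.0163). The erythroid and megakaryocyte factor Gata1 had 25, 38, 2 and 4 counts (-1.87), and the myeloid factor PU.1, deposited as Sfpi1, had 26, 31, 5 and 3 (-1.29, adjusted p = 0.113). Both passed the filter only through the libraries before culture. The background rate would give Gata1 16.2, 20.3, 1.31 and 3.93 counts and Sfpi1 17.9, 22.5, 1.45 and 4.34, so most of these counts are of that size at the coding rate. At the exon rate they would be 4.75, 6.02, 0.382 and 1.16 for Gata1 and 5.25, 6.65, 0.422 and 1.28 for Sfpi1, below the counts found. Hhex, a homeobox factor of endothelium and blood progenitors, rose from 63.3 and 62.6 CPM to 188 and 181 CPM (1.55 ± 0.16), and Zfpm1, the GATA cofactor FOG1, from 32.9 and 39.0 CPM to 152 and 166 CPM (2.14 ± 0.17). Mecom, the factor EVI1 of stem cells and endothelium, fell from 45.3 and 46.1 CPM to 18.9 and 22.1 CPM (-1.13 ± 0.23).

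On the surface, Itga2b, the integrin chain CD41 of megakaryocytes and early progenitors, rose from 15.6 and 14.8 CPM to 169 and 170 CPM (log2 fold 3.48 ± 0.19). Clec1b, which encodes the podoplanin receptor CLEC-2 of platelets, rose from 4.71 and 3.82 CPM to 126 and 109 CPM (4.79 ± 0.23). Its 22 and 34 counts before culture lay under the 33.9 and 42.5 that background would give, whereas the 180 and 374 after lay far above 2.74 and 8.22. At the exon rate 9.94 and 12.6 would be given before culture, below the counts found. Those 2 genes rose among 6 tested megakaryocyte markers, whose counts before culture were 57.5% and 46.8% background. Tubb1 and Gp5 fell, at 51, 77, 2 and 13 counts and at 20, 31, 1 and 1 counts. Both passed the filter only through the libraries before culture, and neither was called by the DESeq2 test or limma-voom. Pf4, Gp9, Ppbp, Treml1 and Gp1bb had too few counts to be tested. Beside 6.36% higher and 15.0% lower over all genes tested, counts over 6 members are no result about the list. Cd93, a receptor of endothelium and progenitors, was at 226, 242, 636 and 552 CPM (1.34 ± 0.15), Procr, the endothelial protein C receptor, at 15.0, 20.3, 60.2 and 54.2 CPM (1.65 ± 0.22), and Prom1, the progenitor protein CD133, at 73.2, 60, 9.8 and 10.2 CPM (-2.68 ± 0.25).

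Markers of mature blood cells were few. Ptprc is the gene of CD45, whose protein was excluded in the sort before culture, while the labels name no such exclusion after it. Ptprc had 91, 118, 6 and 26 counts, or 19.5, 13.2, 4.2 and 7.57 CPM (log2 fold -1.23 ± 0.39, adjusted p = 0.011, not 2-fold in mutant cells). The coding rate would give 122, 153, 9.83 and 29.5 counts, more than were found in each library, and the exon rate 35.7, 45.2, 2.87 and 8.68, fewer than were found. Whether Ptprc stood above background therefore depends on the rate taken. Of 9 leukocyte genes 1 rose and 1 fell, of 8 macrophage genes 0 and 2, of 6 erythroid genes 0 and 2, of 10 lymphoid genes 0 and 3, of 6 neutrophil genes 0 and 0 and of 8 mast cell and eosinophil genes 0 and 2. Over all genes tested 6.36% rose and 15.0% fell, and with so few members these counts are no result about the lists. Background came to 39.7% and 25.3% of the leukocyte, 40.8% and 35.8% of the erythroid and 38.8% and 28.2% of the lymphoid counts before culture. The leukocyte gene that rose was Lcp1, the actin bundler plastin 2, at 67.0, 70.5, 189 and 177 CPM (1.40 ± 0.16). By the DESeq2 test none of the macrophage, erythroid and lymphoid genes was called. The summed macrophage level was 88.6, 72.8, 35.0 and 46.6 CPM, and background came to 41.5%, 33.3%, 27.8% and 26% of those counts. The mast cell list was at 95.4, 120, 133 and 30.6 CPM in sum, so that the wild type library was the higher of the 2 after culture, and without the wild type library after culture 6 of the 8 fell.

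That difference was largest in Cpa3, mast cell carboxypeptidase, with 72 counts in wild type cells before culture and 68 after, and 239 and 5 in mutant cells. Its log2 folds were 1.60 in wild type and -3.85 in mutant cells. Cma1, mast cell chymase, had log2 folds of 1.22 and -2.66. They were 2 of 6 genes past 2-fold in opposite directions, none of which had 100 counts in 2 libraries, and were named after their values were seen. With 1 library per combination, a difference between the genotypes in the effect of culture could not be tested.

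Of 17 immediate early genes, which respond within minutes to stress, growth factors or tissue dissociation, 9 fell and 0 rose after culture. That stands beside 15.0% lower and 6.36% higher over all genes tested. The median log2 fold of the list was -1.25. Klf4, a KLF factor of endothelium and of that response, fell from 817 and 886 CPM to 88.9 and 87.7 CPM (-3.27 ± 0.17, adjusted p = 9.47e-15). Fos and Jun, the components of AP-1, were at 524, 616, 147 and 125 CPM (-2.08 ± 0.17) and at 831, 945, 357 and 352 CPM (-1.33 ± 0.16). Fosb was at 387, 563, 177 and 206 CPM (-1.30). The handling of the cells before lysis differed between embryo and culture, and its part in these values was not tested.

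No cell cycle gene was called. Of 23, 0 rose and 0 fell, and the median log2 fold was -0.11, next to -0.12 over all genes. The proliferation marker Mki67 was at 1090, 1040, 866 and 944 CPM (-0.23, adjusted p = 0.221) and the topoisomerase Top2a at 525, 534, 518 and 415 CPM (-0.20, adjusted p = 0.282). With background subtracted both passed, at -0.58 (adjusted p = 0.00114) and -0.54 (adjusted p = 0.00129), and the list median was -0.39, again with 0 called. Calls in the metabolic lists stood beside 6.36% higher and 15.0% lower over all genes tested. None of 16 oxidative phosphorylation genes and none of 7 fatty acid synthesis genes was called, 1 of 20 sterol genes fell, and of 18 glycolysis and hypoxia genes 2 rose and 1 fell. Those that rose were Pkm2, the deposited name of pyruvate kinase, at 265, 321, 726 and 773 CPM (1.36 ± 0.15), and P4ha1, a hypoxia-induced collagen hydroxylase, at 79.1, 87.5, 342 and 350 CPM (2.05 ± 0.16). Of 11 TGF-beta and BMP targets 3 rose and 1 fell. Smad6, the inhibitor induced by BMP signals, was at 11.8, 18.3, 198 and 165 CPM (3.54 ± 0.20). Of 26 Hox genes 2 fell and 0 rose. Beside the shares over all genes, the counts of the metabolic, TGF-beta and BMP, and Hox lists are no result about the lists.

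Many transcripts of other embryonic tissues fell. Of 16 stromal markers 8 fell and 1 rose (median log2 fold -1.25), of 8 cartilage markers 5 fell (-2.23), of 10 skeletal muscle markers 7 fell (-1.92), of 11 neuronal markers 7 fell (-1.65), of 10 epithelial markers 8 fell (-1.94) and of 7 hepatocyte markers 4 fell (-1.49). None rose in the last 5. The DESeq2 test called fewer, with 7 stromal, 5 cartilage, 4 muscle, 4 neuronal, 3 epithelial and 0 hepatocyte genes lower. Over all genes tested 6.36% rose and 15.0% fell. Of 83 tested receptor genes of smell and of the vomeronasal organ, which endothelium does not use, 29 fell and 0 rose (median log2 fold -1.37). Members such as Fga, Alb, Dcx and Perp had under 20 counts in both libraries after culture. They passed the filter only through the libraries before, so their calls lower are not independent of it. Background made up 40.5% and 24.7% of the muscle counts before culture and 30.3% and 15.7% of the epithelial ones, 34.7% and 20.9% of the neuronal ones and 41.7% and 35.9% of the hepatocyte ones (46% and 49.3% after culture), but 7.02% and 3.34% of the cartilage counts and 3.39% and 1.55% of the stromal ones. Col2a1, the collagen of cartilage, was at 447, 698, 138 and 146 CPM (-2.0 ± 0.17), and Col3a1, a fibroblast collagen, at 1320, 1940, 189 and 116 CPM (-3.46 ± 0.22). Col1a1, the chain of bone and fibroblast collagen I, was at 1000, 1690, 360 and 320 CPM (-1.95 ± 0.19) and Postn, periostin, at 173, 276, 23.8 and 24.5 CPM (-3.26 ± 0.20). The mutant library was the higher of the 2 before culture in all 4.

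OP9 cells are of mouse origin, so their RNA cannot be told apart by sequence from that of the sorted cells. The fibroblast collagens above were lower after culture than before, while the stromal marker that rose was Cxcl12, with the values given above, a chemokine that stromal cells also make. Pdgfra, a receptor of mesenchymal cells named after its values were seen, was at 74.2, 107, 53.2 and 74.3 CPM. Adipocyte markers went the other way, with 7 of 10 higher and 0 lower (median log2 fold 2.08, summed level 124, 113, 952 and 675 CPM). Background came to 49.3% and 35.8% of their counts before culture, and with it subtracted 7 of 9 rose and 0 fell. Fabp4, a fatty acid carrier of adipocytes and capillaries, was at 40.2, 31.1, 380 and 326 CPM (3.32 ± 0.17), Lpl, lipoprotein lipase, at 28.2, 22.8, 298 and 185 CPM (3.20 ± 0.18) and Pparg, a nuclear receptor of both cell types, at 11.8, 13.8, 52.5 and 51.0 CPM (1.99 ± 0.23). The defining adipocyte gene Adipoq, named after its values were seen, had 27, 49, 75 and 43 counts, or 5.78, 5.50, 52.5 and 12.5 CPM. Of 9 smooth muscle markers 3 rose, 1 fell and 5 were not called, and their median log2 fold of -0.12 equalled that of all genes tested. The adipocyte and smooth muscle calls stand beside 6.36% higher and 15.0% lower over all genes tested. Acta2, smooth muscle actin, rose and was at 16, 21.4, 115 and 112 CPM (2.57 ± 0.19). The part of carried-over feeder cells in these levels was not tested.

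Further genes with the largest shared folds had no list. Lgals3bp, a secreted galectin-binding glycoprotein, was at 11.8, 12.2, 926 and 650 CPM (5.98 ± 0.20), and Rgs4, which limits G protein signals, at 8.13, 8.20, 277 and 285 CPM (5.10 ± 0.20). Igfbp5, a binding protein of insulin-like growth factors, was among the called genes with the most counts, at 184, 337, 6540 and 5040 CPM (4.51 ± 0.25). Plxnd1, the endothelial semaphorin receptor, was at 1030, 1220, 3610 and 3290 CPM (1.62 ± 0.18), and the nuclear RNA Malat1 at 5880, 5760, 16300 and 14400 CPM (1.40 ± 0.23). In each of these the groups did not overlap, which is no further support because all were chosen as called genes. The fold of Igfbp5 was 35.4 in wild type and 14.9 in mutant cells.

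Lower after culture were Gnas, the stimulatory G protein alpha subunit, at 3290, 3460, 925 and 942 CPM (-1.85 ± 0.18), and Fam38b, the deposited name of the mechanosensitive channel Piezo2, at 792, 788, 118 and 199 CPM (-2.32 ± 0.18). Cxadr, a junctional adhesion molecule also used by adenovirus, was at 169, 161, 4.2 and 6.99 CPM (-4.75 ± 0.25), and Tmod2, a cap of actin filaments, at 254, 227, 6.30 and 8.45 CPM (-4.93 ± 0.23). Nnat, an imprinted gene, had 488 and 1271 counts before culture and 3 and 13 after (-5.32 ± 0.29). It passed the filter only through the libraries before culture, so its call is not independent of that filter. Fbn2, the microfibril protein fibrillin 2, was at 385, 519, 23.1 and 38.7 CPM (-3.85 ± 0.19), and Pcsk6, a proprotein convertase, at 261, 272, 10.5 and 20.1 CPM (-4.03 ± 0.21). The groups did not overlap in any of these 7 genes, which is no further support because all were chosen as called genes.

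Some calls of single genes depended on the processing, with the sign kept. Of 96 called genes examined singly, 11 were not called with library totals, namely Adipoq, Cd93, Cdh5, Col4a1, Ephb4, Il3ra, Lcp1, Malat1, Pecam1, Pkm2 and Sox18. With background subtracted 7 were not called, namely Cd93, Cdh5, Col4a1, Ephb4 and Pecam1, and Gata1 and Gp5, which were then not tested. The calls of Il3ra, Fosb, Cxcl9, Gata1 and Gp5 ended without 1 or more of the 4 libraries. Those of Gata1, Gp5, Tubb1 and Cxcl9 also ended by the DESeq2 test and limma-voom, and that of Il3ra by the DESeq2 test. With a mean of at least 100 counts 13 were not called or not tested, and at equal depth 9. Without a filter on low counts Fosb, Gata1, Mecom and Nrp2 (log2 fold -0.92) were not called. Nrp2 was not called with DESeq2 size factors either (-0.97).

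**Figure D4:**
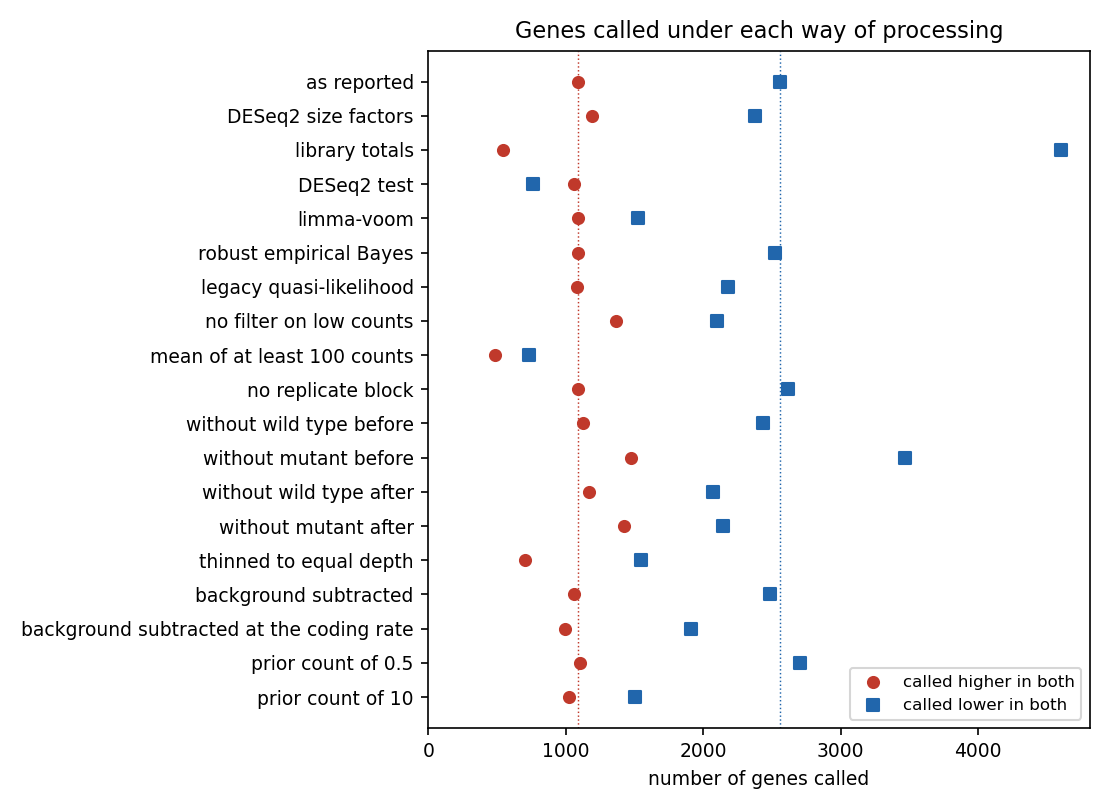
Number of genes called higher (red circles) and lower (blue squares) in both genotypes under each way of processing the counts, with dotted lines at the reported 1087 and 2560. Calls of higher genes vary less than calls of lower genes, which run from 730 with a mean of at least 100 counts to 4608 with library totals.

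The number of calls depended on the scale and on the treatment of low counts. With library totals in place of composition scaling, 545 genes rose and 4608 fell, so that 10.6% of calls were higher in place of 29.8%, and the median of all genes moved from -0.12 to -0.54. Among the lists given above, the interferon, MHC class I and lysosomal medians remained above that of all genes by 2.95, 2.97 and 1.58 on that scale.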

How the data were processed

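RNA of sorted mouse lymphatic endothelial cells was measured in 4 libraries (2 genotypes, before and after culture). The deposited values are raw counts of read pairs per gene symbol, not normalized. The authors' tools were bcl2fastq, STAR and HTSeq 0.11.2 on build mm10, per the submitters' processing notes, and libraries were stranded with reads of 75 nt, per the labels' protocols. The annotation or strand setting is not given in the sources used here. The 5 HTSeq summary classes stayed out of all totals.

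Counts were fitted with edgeR 4.0.16 in R 4.3.3 (TMM scaling, quasi-likelihood F test, genotype plus culture, Benjamini-Hochberg adjustment over 17085 genes). Within-genotype folds used a prior count of 2. Genotype is the pairing, since both libraries of a genotype share a sort, per the labels' protocols. limma 3.58.1 and DESeq2 1.42.0 served as alternatives. Exon lengths came from GENCODE vM21, found for 22844 symbols (97.9%). On simulated counts (15356 genes), 96.9% of 96 genes with a true log2 fold of 2 were called, and 14.1% of 92 with 1. Of unchanged genes 7 passed and 0 were called. The simulation gave every gene the same spread, few changed genes, no genotype effect and no background. These settings differ from the data, so it does not give the rate of false calls here.

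Genes, lists and comparisons were chosen with earlier results of these data known. Named genes are the 12 called genes with the highest and lowest shared fold at 100 counts or more in 2 libraries, the 10 called genes with the most counts in each direction, from each list at most 4 called members by total counts (otherwise 2), and a fixed set of 11 identity genes. Some genes that it selects are not reported here but count in their lists. The text marks those added. Nothing shows separate cultures or animals beyond the 2 pooled litters, so p-values may in part measure technical spread.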

Additional observations from a re-analysis of the deposited data

Results flagged for a closer look

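Some values moved in opposite directions in the genotypes, a difference that was not tested because each combination has 1 library. Cpa3 had log2 folds of 1.60 in wild type and -3.85 in mutant cells, and Cma1 of 1.22 and -2.66. Kit had -0.12 and 0.43. The median log2 fold of the chemokine list was 0.26 in wild type and -0.47 in mutant cells, that of the cell cycle list 0.18 and -0.23, and that of the fatty acid synthesis list 0.33 and -0.26.

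The share of read pairs that did not align, which no comparison of genes uses, was 67.6% in wild type and 56.2% in mutant cells after culture, above 21.4% and 34.1% before.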

How the results depend on the processing

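Scaling by library totals gave 545 calls higher and 4608 lower. With a mean of at least 100 counts (7959 genes) the counts were 483 higher, 730 lower and 3771 passing, and with all libraries thinned to 1694669 counts they were 700, 1549 and 5458. The DESeq2 test gave 760 lower and 3658 passing, limma-voom 1526 lower and a prior count of 10 gave 1502 lower. Requiring 4-fold left 262 higher and 318 lower, and requiring only the same sign gave 4080 and 4204. Without the genotype term (no replicate block) 1088 were called higher, 2621 lower and 9088 passed. Leaving out each library in turn gave 1124 to 1476 higher, 2073 to 3471 lower and 5797 to 8605 passing. In those fits the library without its partner was compared with that of the other genotype. The background at the coding rate was added after seeing the data and gave 998 higher, 1915 lower and 5965 passing. The cause of these differences was not tested, except that the stricter filter tests fewer genes.

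Among named genes the sign of Kit turned with library totals (-0.21), a mean of at least 100 counts (-0.17) and at equal depth (-0.13), and ran from -0.16 to 0.46 with each library left out in turn. With each library left out in turn the log2 fold of Cpa3 ran from -3.90 to 1.11 and the log2 fold of Cma1 from -2.75 to 1.02, above 0 without the mutant library after culture and, for Cpa3 (0.23), without that before. The medians of the fatty acid and coagulation lists turned to -0.41 and -0.16 with library totals, and that of the TGF-beta and BMP targets to 0.01 with DESeq2 size factors. Depth limits genes that fell to under 20 counts after culture, where the fold rests on a few read pairs.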

Other observations

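Targets of p53, the factor that restrains division after DNA damage and other stress, were gathered into a list of 27 genes after their values had been seen, so the counts are a description. Of the 27, 13 rose, 2 fell and 12 were not called, beside 6.36% higher and 15.0% lower over all genes tested. The median log2 fold of the list was 1.07 against -0.12 over all genes tested. Cdkn1a, the cyclin-dependent kinase inhibitor p21, had 105 and 253 counts in wild type and mutant cells before culture and 192 and 401 after (log2 fold 2.27 ± 0.19). Ccng1, cyclin G1, had 174, 318, 336 and 883 counts (2.76 ± 0.17), and Eda2r, a death receptor of the TNF receptor family, had 30, 50, 110 and 325 (3.88 ± 0.24). Bax, which opens mitochondria in apoptosis, had 62, 172, 122 and 292 counts (2.35 ± 0.21). Both genotypes were higher after culture in each of these genes once scaled for depth.

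The list was not uniform. Mdm2, the ubiquitin ligase that limits p53, had a log2 fold of 0.86 and was not called, and Pmaip1, the apoptosis gene Noxa, and Perp, a desmosome gene, fell by 1.89 and 2.29 on the log2 scale. Pmaip1 and Perp passed the filter only through the libraries before culture, so their calls are not independent of it. With library totals 11 of the list rose, with DESeq2 size factors 14 rose, and with background subtracted at the coding rate 13 rose and 4 fell.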
